A study of Drosophila melanogaster with 48 samples.

Results

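Transcript levels in the gut were set against those in the fat body of adult Drosophila melanogaster females that carried the S106 driver alone (S106>Wdah). Genes were taken where the mean normalised count was at least 10 in either tissue, which left 10256 of 16185 genes. Each mean was divided by the sum of its column and multiplied by 1000000 to give CPM, and the same ratio was read from the S106>Xbp1s and S106>Xbp1U tables as a check. At the minimum itself, sens lay just inside with a mean of 10.03 in fat body, and CG11159 just outside with 9.96.

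The study asked how Xbp1, a transcription factor of the unfolded protein response, acts in gut and fat body when it is induced in adult life. S106 is a GeneSwitch driver that is active in both tissues when flies eat RU486. It drove the spliced form of Xbp1 in S106>Xbp1s flies and the form named Xbp1U in S106>Xbp1U flies, and nothing in S106>Wdah flies. Females were kept with males for 48 h, ate food with RU486 (RU+) or with vehicle (RU-) for 7 days and were dissected on day 9, and 12 guts or 12 fat bodies made up a library.

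By the labels of the 48 libraries, the driver-alone gut table averages 4 libraries with RU486 and 5 without, and that of the fat body 5 with and 5 without. For S106>Xbp1s flies the gut table averages 3 of each kind and that of the fat body 4 of each kind. For S106>Xbp1U flies it is 4 of each kind in gut, and 4 with and 3 without RU486 in fat body. Of the 48 libraries none has a value of its own in the tables, so no error between replicates, no n and no test stand behind any ratio below. The spread between the 3 genotypes is given in their place, and a gene is placed on the gut side or the fat body side by size alone, at 4-fold. These are separate libraries, but the transgene tables include flies in which Xbp1s or Xbp1U was induced, and gut and fat body samples came from the same flies. The transgene gut tables lack 24 genes that the driver-alone table holds, and the transgene fat body tables lack 1. The fat body was dissected along with the abdominal cuticle, to which oenocytes, muscle and hemocytes adhere.

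The fly midgut digests and takes up food. Its enterocytes secrete proteases, carbohydrases and lipases, and enteroendocrine cells scattered among them release peptide hormones. The fat body does work that liver and adipose tissue share in mammals, storing fat and glycogen, making lipoproteins and yolk, and secreting immune peptides into the hemolymph. In these bulk samples fewer cells of a type and less RNA per cell cannot be told apart.

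Column sums ran from 22483518 in driver-alone gut to 25130044 in S106>Xbp1s fat body, so that a mean of 10 corresponds to 0.398 to 0.445 CPM. Each table was normalised on its own. The log2 ratio used throughout is that of gut over fat body, each in CPM plus 0.1. Over the 9008 genes whose means reached 10 in gut and in fat body alike, its median was -0.41 in S106>Wdah, -0.54 in S106>Xbp1s and -0.64 in S106>Xbp1U. Ratios between this median and 0 therefore change sign when they are centred on it. The driver-alone and S106>Xbp1s gut tables each stood apart, in opposite directions. Of 10231 genes present in all tables, 63 were at least 8-fold above both other guts in S106>Wdah gut, against 0 in S106>Xbp1s gut and 2 in S106>Xbp1U gut. In the other direction, 19 genes were at least 8-fold below both other guts in S106>Xbp1s gut, against 0 in S106>Wdah gut and 0 in S106>Xbp1U gut. As many as 22 of those 63 belonged to the germline, eggshell and early embryo lists described further on. Among all genes tested, these lists hold 16 germline, 11 vitelline membrane, 9 chorion and 19 early embryo genes. The early embryo list was written after such genes had been seen in these data, so its part of the overlap is in part built in. In fat body 6, 3 and 3 genes were that far above both other tables in S106>Wdah, S106>Xbp1s and S106>Xbp1U, and 0, 9 and 3 that far below.

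Gut and fat body differed at least 4-fold in 23.5% of genes. In S106>Wdah 1068 genes (10.4% of those tested) were at least 4-fold higher in gut and 1345 (13.1%) at least 4-fold higher in fat body, while 5598 (54.6%) differed less than 2-fold. With the ratios centred on their median the split was 1229 genes toward gut and 963 toward fat body, and the S106>Xbp1U tables gave 966 toward gut and 2042 toward fat body. In S106>Wdah 429 genes were past 32-fold toward gut and 103 toward fat body, and 147 against 4 were past 128-fold. That order did not hold in S106>Xbp1s, where 379 genes were past 32-fold toward gut and 506 toward fat body, and 54 against 154 were past 128-fold. In S106>Xbp1U the numbers were 407 and 377 past 32-fold, and 240 and 47 past 128-fold. Genes at least 4-fold higher in gut made up 36.3% of gut counts and 1.33% of fat body counts, and those at least 4-fold higher in fat body made up 1.40% of gut counts and 21.3% of fat body counts. At the threshold, Cndp2 lay just inside on the gut side at 2.002 and lncRNA:CR45018 just outside at 1.99.

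Most of these differences were present in each genotype. Of 1047 gut-side genes with values in all 3 genotypes 861 (82.2%) were past 4-fold toward gut in both transgene genotypes as well, and of 1344 fat body-side genes 1223 (91.0%) were past 4-fold toward fat body. Across the 10231 genes the rank correlation of the ratios was 0.91 between S106>Wdah and S106>Xbp1s, 0.94 between S106>Wdah and S106>Xbp1U and 0.95 between the transgene genotypes, as a description over genes that share libraries. The range of a gene's 3 ratios had a median of 0.49. It was wider for fat body-side genes (median 1.47) than for gut-side genes (median 0.73). For 89.7% of fat body-side genes the ratio lay further toward fat body in S106>Xbp1U than in S106>Wdah, and for 88.8% it did so in S106>Xbp1s.

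**Figure D1:**
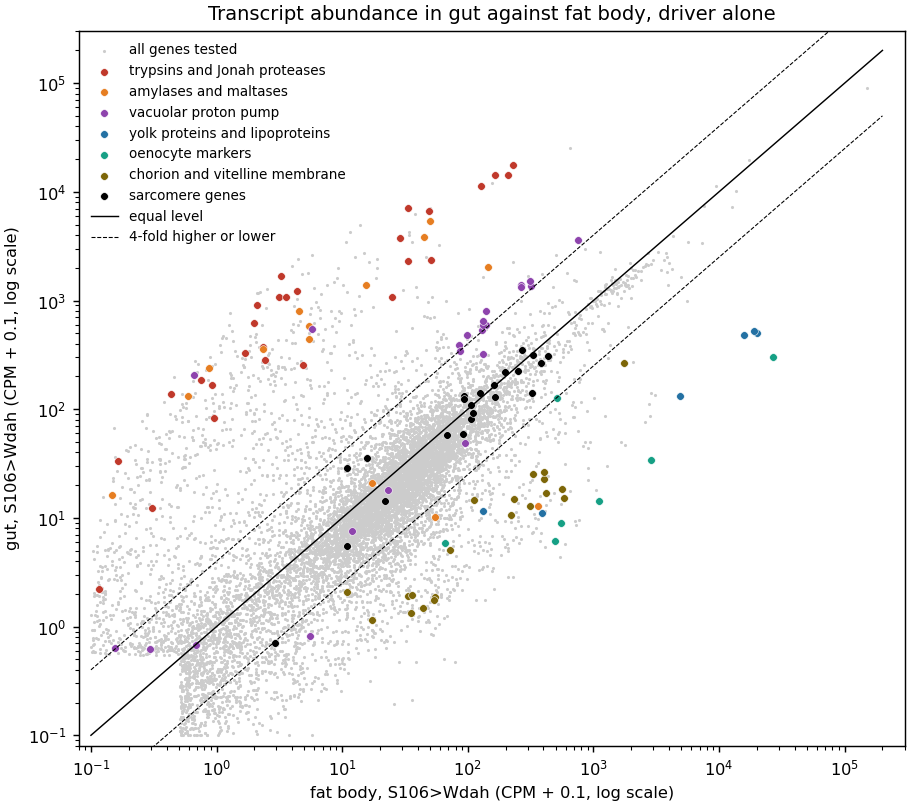
Level of each of 10256 genes in gut (vertical axis) and fat body (horizontal axis) of S106>Wdah, in CPM plus 0.1 on log scales, with members of gene lists in colour. The solid line marks equal levels and the dashed lines 4-fold differences. Trypsins and Jonah proteases lie far above the upper dashed line, yolk proteins, oenocyte markers and eggshell genes below the lower one, and sarcomere genes near the line of equal levels.

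In driver-alone flies a mitochondrial transcript led both tissues. On a scale of CPM per kb of exon, rescaled to a common total in each tissue, the gene with the highest level was mt:lrRNA, the large mitochondrial ribosomal RNA, at 86394 in gut and 157250 in fat body when driver-alone flies were read. It took 9.02% of counts in gut and 15.2% in fat body there, against 5.05% and 3.91% in S106>Xbp1s and 6.51% and 5.85% in S106>Xbp1U, from libraries that were selected for poly(A) RNA. In S106>Xbp1s fat body Cyp4g1 took more, at 4.12%. Its ratio was -0.75 in S106>Wdah but 0.37 and 0.16 in S106>Xbp1s and S106>Xbp1U, so its order between the tissues was not the same across genotypes. Transcripts of mt:CoI, mt:CoII and mt:CoIII, which encode subunits of cytochrome c oxidase, were close to equal in S106>Wdah, with length-scaled levels of 16303, 13584 and 18040 in gut and 15590, 15161 and 16540 in fat body.

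The rest of the leading gut transcripts were those of proteases. The 10 highest length-scaled levels in gut were those of 4 mitochondrial transcripts and of alphaTry (25829 in gut, 362 in fat body), CG12374 (22064 and 615), Jon65Aiv (20106 and 251), yip7 (17066 and 238), betaTry (17024 and 269) and Jon65Aiii (16411 and 202). alphaTry and betaTry are trypsins, and the Jonah genes and yip7 encode chymotrypsin-like enzymes. In fat body, RpL41, a very short ribosomal protein (13514 in gut, 31344 in fat body), and lncRNA:CR34335 (5749 and 18813) followed mt:lrRNA. Below them came Yp1 (399 and 17059) and Yp2 (415 and 15971), which encode yolk proteins, and Cyp4g1 (168 and 16307), the decarbonylase of cuticular hydrocarbon synthesis. The 10 most abundant genes together held 22.6% of gut counts and 29.4% of fat body counts in S106>Wdah, 21.6% and 22.4% in S106>Xbp1s, and 22.2% and 23.3% in S106>Xbp1U. The 50 most abundant held 37.3% of gut counts and 42.2% of fat body counts in S106>Wdah.

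All 11 trypsins and all 16 Jonah proteases were at least 4-fold higher in gut, in each genotype, with median ratios in S106>Wdah of 7.30 and 7.04. The median over all genes tested was -0.42. alphaTry had 17515 CPM in gut against 227 CPM in fat body of S106>Wdah, 22059 against 181 CPM in S106>Xbp1s and 21293 against 45.3 CPM in S106>Xbp1U. The gut values of the 3 genotypes lie close together and far above every fat body value, and the S106>Xbp1U fat body is the lowest. Summed over the Jonah list, gut held 52050 CPM against 500 CPM in fat body of S106>Wdah, 68548 against 579 in S106>Xbp1s and 62872 against 114.5 in S106>Xbp1U. The member with the smallest ratio was Jon66Cii (4.28, with 2.14 CPM in gut and 0.0153 in fat body). Its fat body level lies below the 0.1 CPM added to each level, which lowers this ratio, so its rank is uncertain. gammaTry and deltaTry are near-identical to each other and to their neighbours CG30025 and CG30031, so their single values are uncertain, and how reads shared by copies were counted is not given in the sources used here.

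Carbohydrate digestion followed the proteases, with exceptions. Of 14 amylase and maltase genes 11 were on the gut side, 2 on the fat body side and 1 on neither. The gut amylase Amy-p had 1385 CPM in gut against 15.3 CPM in fat body of S106>Wdah, and Mal-A1, a maltase, 5345 against 49.8 CPM. Mal-A6 had 3831 against 45.1 CPM and tobi, an alpha-glucosidase known as a target of brain insulin, 2050 against 145 CPM. Mal-B2 went the other way, with 12.7 CPM in gut against 365 CPM in fat body of S106>Wdah, 3.77 against 538 in S106>Xbp1s and 7.74 against 440 in S106>Xbp1U. Mal-A5 was also higher in fat body (10.02 and 54.9 CPM, ratio -2.44). Mal-B1 had 20.8 and 17.1 CPM, and its ratio was 0.28 in S106>Wdah, 1.24 in S106>Xbp1s and -1.64 in S106>Xbp1U.

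Lysozymes, which digest bacterial walls in the gut lumen, were on the gut side for 5 of 6 genes. LysD had 3225 CPM in gut against 59.2 CPM in fat body, and LysP, a form known from salivary glands, 36.5 against 21.9 CPM. Sterol and lipid uptake divided by gene. mag, a lipase, had 1162 CPM in gut against 2.01 CPM in fat body (ratio 9.10), and Npc1b, a transporter needed for sterol uptake, 470.5 against 1.02 CPM (8.72). Npc2d and Npc2e, of the family of sterol-binding Npc2 proteins, had ratios of 8.30 and 8.32. Their relatives Npc2g and Npc2h were fat body genes, with 9.80 CPM in gut against 340 CPM in fat body and 1.90 against 61.4 CPM, and kept that order in each genotype. Among components of the peritrophic matrix, the chitinous sheath around food, 4 of 5 were on the gut side. Muc68D, a mucin, had 1026 CPM in gut against 4.29 CPM in fat body.

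The progenitor, copper cell and gut transcription factor lists summed to 234, 278 and 369 CPM in gut of S106>Wdah. Most members of each were on the gut side. The enterocyte list, which holds alphaTry and betaTry, summed to 33898 CPM there. esg, the transcription factor of intestinal progenitors, had 22.5 CPM in gut against 0.190 CPM in fat body (ratio 6.29), and Sox21a, another progenitor factor, 9.44 against 0.0542 CPM. Delta, the Notch ligand of intestinal stem cells, was at 15.2 CPM in gut against 42.1 CPM in fat body, at 6.86 against 25.7 CPM in S106>Xbp1s and at 7.31 against 31.5 CPM in S106>Xbp1U. Of 6 such markers 4 were on the gut side, and Delta was past 4-fold toward fat body only in S106>Xbp1U (-2.09). In the acid-secreting copper cell region, lab, its homeotic gene, had 10.6 CPM in gut against 0.137 CPM in fat body and Vha100-4, a pump subunit, 208 against 0.561 CPM. GATAe, the endodermal GATA factor, had 91.5 against 1.90 CPM and nub 87.9 against 0.840 CPM. Of 10 gut transcription factors 6 were on the gut side, and Dr went against the list with 0.633 CPM in gut and 8.93 CPM in fat body.

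Most enteroendocrine hormone genes were also on the gut side, with a smaller median ratio than trypsins (7.30) and Jonah proteases (7.04). Of 11 peptide genes 9 were on the gut side, 8 of them in each genotype, with a median of 5.28. AstC (allatostatin C) had 137 CPM in gut against 0.428 CPM in fat body, Tk (tachykinin) 84.3 against 0.798 CPM, Orcokinin 52.3 against 1.24 CPM and AstA 49.3 against 1.15 CPM. CCHa2 is a nutrient-responsive hormone that the fat body also makes. It had the list's highest level in fat body, with 67.8 CPM in gut against 216 CPM in fat body of S106>Wdah, 76.9 against 217 in S106>Xbp1s and 74.9 against 240 in S106>Xbp1U. These values differ little between genotypes in either tissue. ITP, the ion transport peptide, had 11.3 CPM in gut and 19.7 CPM in fat body.

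The vacuolar proton pump, which acidifies lumen and organelles, was higher in gut as a set. Of 23 tested subunit genes 16 were on the gut side, 1 on the fat body side and 6 on neither, with a median of 2.10 in S106>Wdah, 2.19 in S106>Xbp1s and 1.96 in S106>Xbp1U. The median lies at the threshold, and 9 of the 16 were past it in every genotype. Ratios of the ubiquitous subunits lay in a narrow band. Vha16-1 was at 2.28 (3640 CPM in gut and 750 CPM in fat body), Vha26 at 2.28, Vha68-2 at 2.39 and Vha55 at 2.10. Vha100-5 (6.58) and Vha100-4 (8.30) were far more biased to gut. Vha36-3 had 0.713 CPM in gut against 5.43 CPM in fat body. Nuclear-encoded respiratory subunits, by comparison, had a median of 0.30 with 66 of 69 on neither side.

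Of 80 cytochrome P450 genes, a family of detoxification and hormone metabolism, 23 were on the gut side and 9 on the fat body side, where the shares over all genes tested are 10.4% and 13.1%. Cyp6d5 had 1756 CPM in gut against 391.7 CPM in fat body and Cyp9b2 521 against 56.8 CPM. On the other side Cyp6w1 had 108 CPM in gut against 673 CPM in fat body and Cyp4aa1 6.21 against 108 CPM. In gut the P450 list summed to 9759 CPM and in fat body to 32257 CPM, of which Cyp4g1 alone held 27063 CPM. Among 32 glutathione S-transferases 9 were on the gut side, with GstO3 at 461 and 61.1 CPM and GstE3 at 316 and 31.6 CPM. GstZ2 was the 1 gene on the fat body side (0.828 CPM in gut and 17.1 CPM in fat body).

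**Figure D2:**
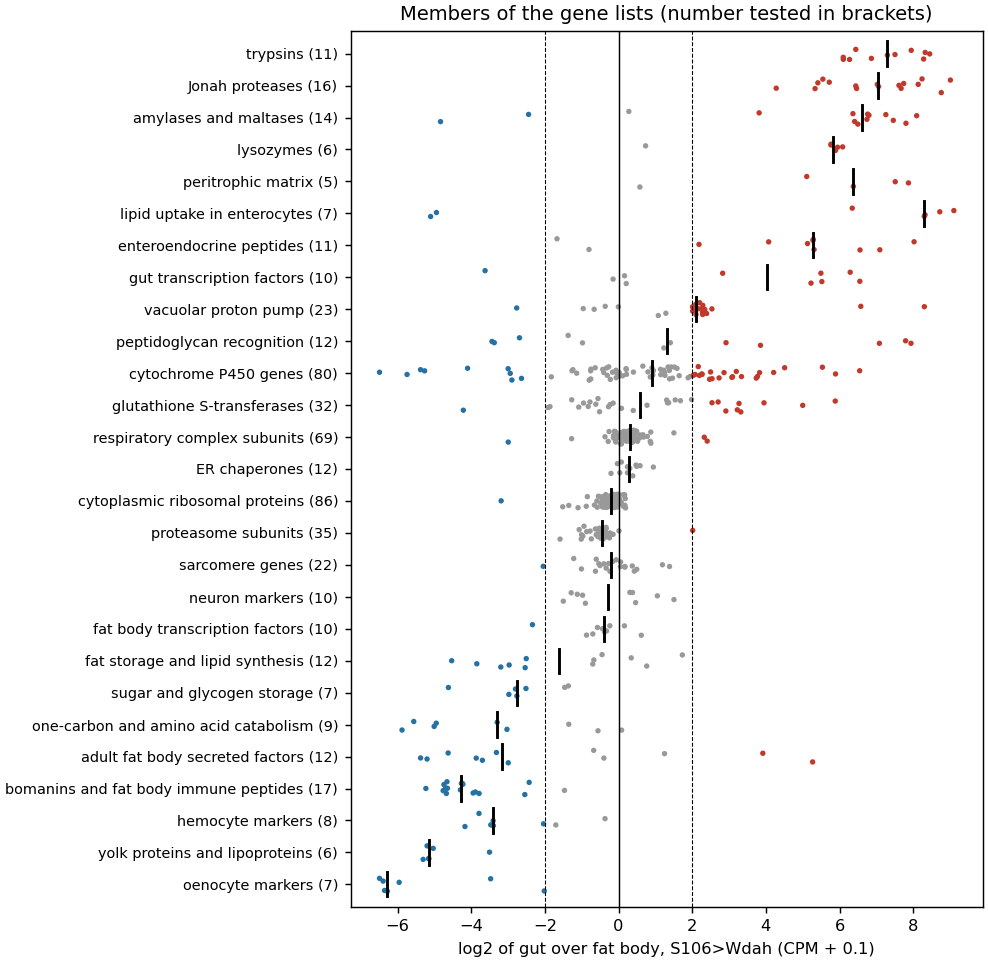
Log2 ratio of gut over fat body in S106>Wdah for each tested member of gene lists, with the number tested in brackets. Points are genes, black bars are list medians, red marks genes at least 4-fold higher in gut, blue those at least 4-fold higher in fat body, and the dashed lines stand at 2 and -2. Medians run from 8.30 for lipid uptake in enterocytes to -6.27 for oenocyte markers.

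All 6 yolk protein and lipoprotein genes were at least 4-fold higher in fat body in each genotype, with a median of -5.15 in S106>Wdah. Yp1 had 506 CPM in gut against 20012 CPM in fat body of S106>Wdah, 174 against 33323 CPM in S106>Xbp1s and 318 against 31458 CPM in S106>Xbp1U. Yp2 and Yp3 had 18817 and 15744 CPM in driver-alone fat body. The driver-alone pair was the least apart of the 3, with the highest level in gut and the lowest in fat body. apolpp, the main lipoprotein of hemolymph, had 133 CPM in gut against 4881 CPM in fat body, and Mtp, which loads lipid onto it, 11.5 against 131 CPM. Yolk genes are also transcribed by ovarian follicle cells, so their source within the fat body sample cannot be told apart here.

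Fat synthesis and storage were divided. Of 12 genes 6 were on the fat body side in each genotype and 6 on neither. FASN1, the fatty acid synthase, had 134 CPM in gut against 3100 CPM in fat body (ratio -4.53), Desat1, a desaturase, 979 against 5562 CPM (-2.51) and Lsd-1, a lipid droplet protein, 85.6 against 1233 CPM (-3.85). ACC, which makes malonyl-CoA, had 97.1 against 891 CPM. bmm and Hsl, which encode lipases of stored fat, had 125 and 31.6 CPM in gut against 98.4 and 50.3 CPM in fat body. Gpat4, an acyltransferase of glycerolipid synthesis, was higher in gut in each genotype (287 against 86.4 CPM in S106>Wdah), with ratios from 1.58 to 1.73. Of 7 genes of sugar and glycogen storage 5 were on the fat body side. Tps1, the trehalose synthase, had 113 CPM in gut against 2771 CPM in fat body, but it is absent from the transgene gut tables. Pgm1 had 117 against 792 CPM and UGP 75.3 against 594 CPM.

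Of 9 tested genes of one-carbon and amino acid catabolism 6 were on the fat body side, in each genotype. Gnmt, a methyltransferase that consumes S-adenosylmethionine, had 18.3 CPM in gut against 567 CPM in fat body, and the tyrosine-degrading genes Hpd and hgo had 3.18 against 154 CPM and 0.759 against 50.4 CPM. Secreted factors of the fat body were mixed. Of 12 tested 7 were on the fat body side, led by Obp99a (17.8 CPM in gut, 656 CPM in fat body), Gbp2, a growth-blocking peptide (6.28 and 265 CPM), and Tsf1, the iron carrier transferrin (10.1 and 252 CPM). NLaz, a lipocalin, went against the list with 711 CPM in gut and 47.0 CPM in fat body, and so did to (takeout) with 77.8 and 1.92 CPM. Both were past 4-fold in each genotype. Transcription factors associated with the fat body separated the tissues little. Only srp, the GATA factor of fat body and blood, was past 4-fold among 10 (12.1 CPM in gut, 61.3 CPM in fat body), and the list's median of -0.41 was 0.0013 after centring, so no direction held under both scalings.

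Bomanins and related immune peptides were mostly fat body transcripts, and antibacterial peptides were mixed. Of 17 bomanins and related peptides 16 were on the fat body side in each genotype, with medians of -4.27 in S106>Wdah, -6.87 in S106>Xbp1s and -5.76 in S106>Xbp1U. IM33 had 117 CPM in gut against 683 CPM in fat body and BomT3 9.30 against 251 CPM. Drs, the antifungal peptide drosomycin, was the exception in S106>Wdah only. It had 119 CPM in gut against 331 CPM in fat body of S106>Wdah (ratio -1.47), 1.17 against 345 CPM in S106>Xbp1s (-8.09) and 29.1 against 467 CPM in S106>Xbp1U (-4.0). The fat body values lie close together and the gut values spread widely. Of 12 tested antibacterial peptide genes 6 were on the fat body side, 2 on the gut side and 4 on neither. Of the 16 listed, 8 were under 1 CPM in both tissues of S106>Wdah. Drsl2 and Drsl3, relatives of Drs, were on the gut side with 5.12 and 7.19 CPM in gut against 0.110 and 0.0874 CPM in fat body. Of 12 peptidoglycan recognition genes 5 were on the gut side and 3 on the fat body side. The amidases PGRP-SC2 (867 CPM in gut, 6.31 CPM in fat body), PGRP-SC1a (66.6 and 0.172 CPM), PGRP-SC1b (42.2 and 0.0908 CPM) and PGRP-LB (79.4 and 10.4 CPM), which degrade peptidoglycan, were on the gut side. PGRP-SA (1.75 and 19.0 CPM) and PGRP-SD (2.58 and 17.2 CPM), the circulating sensors, were on the fat body side, together with PGRP-SB1 (0.609 and 7.57 CPM).

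**Figure D3:**
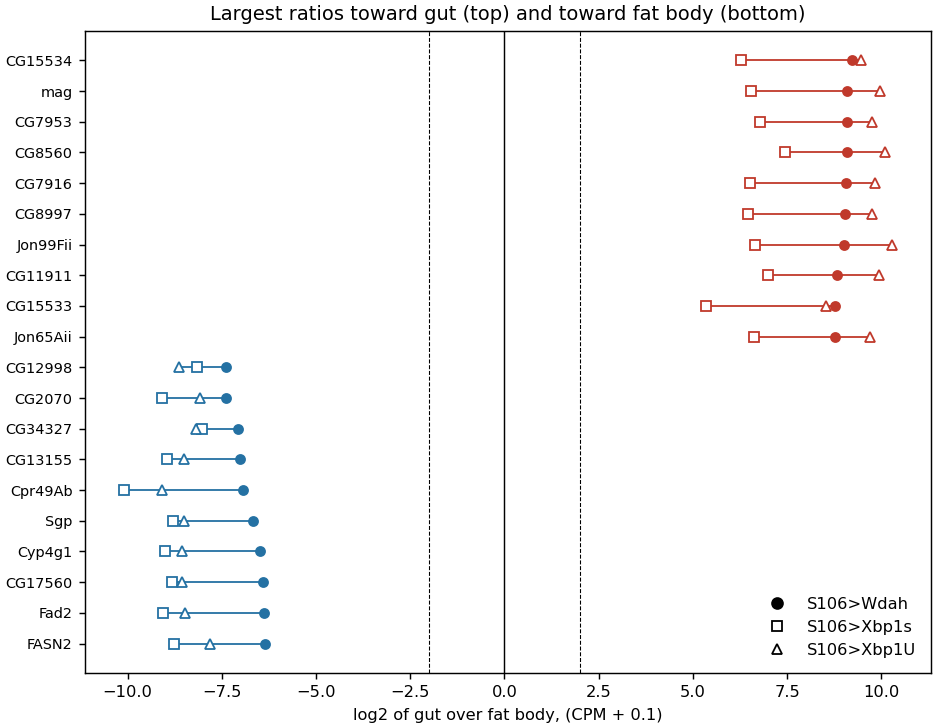
Log2 ratio of gut over fat body for the 10 genes with the largest ratio in each direction, among genes whose mean reached 100 in the higher tissue and that were past 4-fold in each genotype. Filled circles are S106>Wdah, squares S106>Xbp1s and triangles S106>Xbp1U, and the lines span the 3 genotypes. Toward gut S106>Xbp1s lies lowest in every row, and toward fat body S106>Wdah lies closest to 0.

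The largest ratios toward gut were led by CG15534 (759 CPM in gut against 1.17 CPM in fat body, ratio 9.23), mag, CG7953 (1167 against 2.03 CPM), CG8560 (2405 against 4.35 CPM), CG7916 (1197 against 2.14 CPM) and CG8997 (2096 against 3.88 CPM). Jon99Fii, CG11911, CG15533 and Jon65Aii completed the first 10, with ratios from 8.76 to 9.01. In each of these 10 the ratio was smallest in S106>Xbp1s. CG8560, for one, had 3247 CPM in gut against 18.4 CPM in fat body of S106>Xbp1s and 3394 against 2.996 CPM in S106>Xbp1U, so the gut levels were alike and the fat body level differed. The largest ratios toward fat body belonged to CG12998 (0.112 CPM in gut against 35.6 CPM in fat body, ratio -7.39), CG2070 (0.372 against 78.9 CPM), CG34327, CG13155 and Cpr49Ab, a cuticle protein (4.31 against 542 CPM). Sgp, Cyp4g1, CG17560, Fad2 and FASN2 followed, with ratios from -6.35 to -6.68.

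Few transcripts were listed at 0 in one tissue. The minimum was passed by 2 genes at 0 in fat body, CG11227 (1.19 CPM in gut) and lncRNA:CR44618 (0.550 CPM), and by 15 at 0 in gut. The most abundant of the 15 were TwdlM (5.64 CPM in fat body) and TwdlB (3.64 CPM), of the Tweedle family of cuticle proteins, then CG13060 (0.927 CPM), TwdlD (0.746 CPM) and CG30458 (0.740 CPM). Against driver-alone fat body, TwdlM was lower in fat body of S106>Xbp1s (0.690 CPM) and of S106>Xbp1U (2.02 CPM), and at 0 in both of their guts.

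Genes of one side were often neighbours. Among the 1065 gut-side genes followed by a tested gene on their chromosome arm, the next gene was also on the gut side for 36.1%, against the 10.4% of all genes on that side, and for the 1344 fat body-side genes the share was 29.8%, against 13.1%. The longest run on the gut side was 14 genes over 20.7 kb of chromosome 2R (11336840 to 11357537, dm6), which holds the 11 trypsins with CG30031, CG30025 and CG13202. On the fat body side it was 11 genes over 13.9 kb of 2R (18381393 to 18395282), made of 10 bomanins and Idgf5. Runs of 4 or more genes numbered 42 on the gut side and 40 on the fat body side. The chorion genes Cp7Fa, Cp7Fb, Cp7Fc, Cp36 and Cp38 lay in a run of 9 on chromosome X. Genes of both sides were shorter than the rest, with median exonic lengths of 1574 bp on the gut side, 1778 bp on the fat body side and 2072 bp for genes on neither. Protein-coding genes made up 93.3%, 92.6% and 94.6% of these sets.

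Oenocyte genes, which make cuticular hydrocarbons and pheromones, were among the most abundant transcripts of the fat body samples. All 7 were on the fat body side in each genotype (median -6.27 in S106>Wdah). Their sum was 496 CPM in gut against 32652 CPM in fat body of S106>Wdah, 245 against 47426 CPM in S106>Xbp1s and 276 against 49213 CPM in S106>Xbp1U. Besides Cyp4g1, the list held Fad2, a desaturase of female pheromones (33.9 CPM in gut, 2856 CPM in fat body), FASN3 (14.2 and 1106 CPM) and eloF, an elongase (8.85 and 555 CPM). Hemocyte markers were also on the fat body side for 6 of 8 genes. Hml (hemolectin) had 2.61 CPM in gut against 37.4 CPM in fat body and NimC1, a phagocytic receptor, 1.64 against 18.3 CPM. crq, a scavenger receptor, was the list's most abundant gene and had 79.7 and 102.8 CPM. All listed oenocyte and hemocyte genes but 2 (lz, He) exceeded 1 CPM in fat body, and the part of these cells in other fat body-side genes was not tested.

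Most muscle genes differed less than 4-fold between the samples. Of 22 sarcomere genes 21 were on neither side, with a summed level of 3004 CPM in gut against 3377 CPM in fat body of S106>Wdah, 3335 against 5420 CPM in S106>Xbp1s and 2944 against 4354 CPM in S106>Xbp1U. The median was -0.20, -0.74 and -0.55 in these genotypes and 0.21 in S106>Wdah after centring, so no direction held under both scalings. Mhc, the myosin heavy chain, had 221 and 196 CPM, and sls, the titin homologue, 140 and 326 CPM. Flight muscle genes were low, and the 4 summed to 18.9 CPM in gut against 36.5 CPM in fat body of S106>Wdah. The sums were 16.4 against 53.6 CPM in S106>Xbp1s and 13.6 against 41.5 CPM in S106>Xbp1U. Act88F went against these sums, with the list's highest ratio in S106>Wdah (1.96, 1.44 CPM in gut and 0.296 CPM in fat body). Neuronal markers were also near equal, at 46.0 CPM in gut and 45.3 CPM in fat body for the list sum, with 10 of 10 tested genes on neither side. Of 6 trachea markers 2 were on the fat body side and 1 of those in each genotype.

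Markers of the Malpighian tubules, the renal organs attached to the gut, were read in both samples, and their order depended on the genotype. The 14 markers summed to 371 CPM in gut against 225 CPM in fat body of S106>Wdah, 180 against 296 CPM in S106>Xbp1s and 289 against 350 CPM in S106>Xbp1U. Uro (urate oxidase) had 62.5 against 27.6 CPM, 13.0 against 43.7 CPM and 45.5 against 46.2 CPM in the same order of genotypes. The list's median was 1.07, -0.99 and -0.20, and 13 of 14 were on neither side in S106>Wdah. Testis and accessory gland genes, which mark male tissue, were near 0. Of 21 in the tables, 20 were under 1 CPM in both tissues and only mia passed the minimum (13.3 CPM in gut, 2.07 CPM in fat body). Photoreceptor genes were low as well. ninaE, the main opsin, had 4.41 CPM in gut against 2.84 CPM in fat body of S106>Wdah, 0.830 against 2.05 CPM in S106>Xbp1s and 18.1 against 5.74 CPM in S106>Xbp1U. ninaD, a carotenoid receptor that also works in the gut, had 129 and 11.7 CPM.

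**Figure D4:**
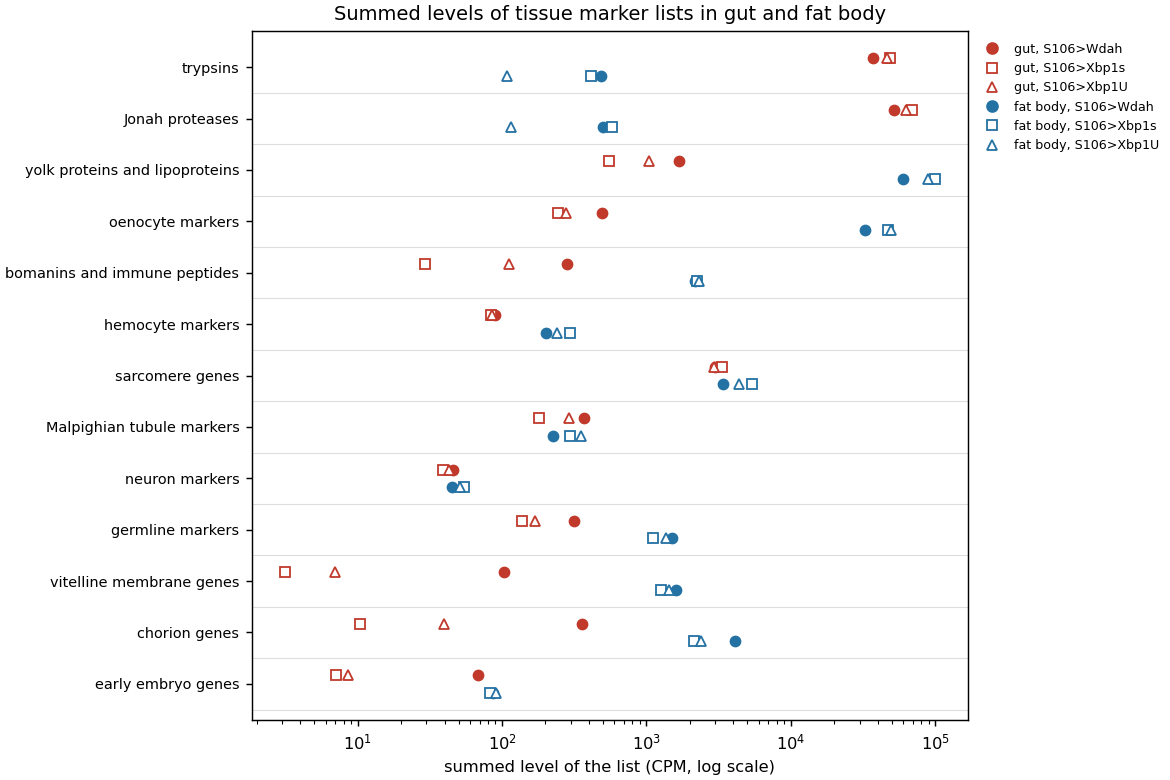
Summed level in CPM, on a log scale, of 13 marker lists in gut (red, upper points) and fat body (blue, lower points) of S106>Wdah (filled circles), S106>Xbp1s (squares) and S106>Xbp1U (triangles). Digestive proteases, yolk genes and oenocyte genes lie far apart between tissues, sarcomere, tubule and neuron lists lie close together, and among the gut values of the germline, eggshell and early embryo lists that of S106>Wdah is the highest.

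Gut enzymes were present at a low level in every fat body table. Of the 20 most abundant gut-side genes the fat body level was a median of 0.891% of the gut level in S106>Wdah, 0.862% in S106>Xbp1s and 0.218% in S106>Xbp1U. These genes were picked as at least 4-fold higher in gut of S106>Wdah, so a low share there was in part built in. The highest value in each genotype was that of Vha16-1 (20.6%, 20.1% and 22.3%), a gene of every cell. The share was not the same for all enzymes of a sample. In driver-alone fat body CG12374 stood at 2.58% of its gut level, betaTry at 1.46% and alphaTry at 1.30%, but CG12057 at 0.277% and CG10472 at 0.267%. In S106>Xbp1s fat body these 5 genes lay between 0.820% and 1.11%, and in S106>Xbp1U fat body between 0.119% and 0.255%. The order of the genes thus changed with the genotype, with CG12374 above CG10472 in driver-alone fat body and about level with it in S106>Xbp1s fat body (0.939% and 0.924%).

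Transcripts of the fat body samples were present at a low level in every gut table, and by the median most in S106>Wdah. The 20 most abundant fat body-side genes with values in each genotype were taken, which leaves out Tps1. These were picked as at least 4-fold higher in fat body of S106>Wdah, so a low gut share there was in part built in. The gut level of the 20 was a median of 2.97% of the fat body level in S106>Wdah, 0.656% in S106>Xbp1s and 1.44% in S106>Xbp1U. Not all 20 are fat body markers. They include the oenocyte genes Cyp4g1, Fad2 and FASN3. The egg and eggshell genes dhd and Cp15 stood at 13.3% and 15.2% in S106>Wdah, and at 0.945% and 2.01% in S106>Xbp1s. The highest value in each genotype was that of Desat1 (17.6%, 13.4% and 15.7%). Yolk protein and lipoprotein genes together stood at 2.79%, 0.552% and 1.18% and oenocyte genes at 1.52%, 0.517% and 0.560%. Yp1, Yp2 and Yp3 were within 2.53% to 3.06% in S106>Wdah, while Cyp4g1 and Fad2 were at 1.11% and 1.19%. Among these 20 the lowest gut shares came from FASN3 and Fad2 in S106>Xbp1s (0.160% and 0.184%).

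Ovarian and eggshell transcripts were found in both tissues and were concentrated in fat body. Of 16 tested germline markers 14, of 11 vitelline membrane genes 11 and of 9 chorion genes 9 were on the fat body side in each genotype. Cp15, a chorion protein, had 265 CPM in gut against 1743 CPM in fat body of S106>Wdah, 3.91 against 195 CPM in S106>Xbp1s and 11.6 against 706 CPM in S106>Xbp1U. Vm26Aa, a vitelline membrane protein, had 22.5 against 406 CPM, 0.432 against 318 CPM and 1.62 against 323 CPM, and osk, the germ plasm organiser, 17.8 against 138 CPM, 0.757 against 138 CPM and 2.72 against 131 CPM. The fat body levels of Vm26Aa and osk differed little between genotypes, whereas the gut levels were highest in S106>Wdah for all 3 genes. Summed, vitelline membrane genes stood in gut at 6.39% of the fat body level in S106>Wdah, 0.248% in S106>Xbp1s and 0.480% in S106>Xbp1U, and chorion genes at 8.74%, 0.488% and 1.66%. dhd, a thioredoxin of the egg, was among the 20 most abundant fat body-side genes, with 274 CPM in driver-alone gut and 2061 CPM in driver-alone fat body. RpS5b, the ovarian form of a ribosomal protein, had 53.9 CPM in gut and 491 CPM in fat body and was the 1 of 86 ribosomal protein genes past 4-fold.

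Driver-alone gut also held transcripts that are switched on in the zygote. A list of 24 genes of the blastoderm embryo was written after such genes had been seen among those that changed sides between genotypes, so it is a description only. Of 19 tested, 8 were on the gut side in S106>Wdah and 0 in each genotype. term had 3.72 CPM in gut against 0.148 CPM in fat body of S106>Wdah, 0.00 against 1.10 CPM in S106>Xbp1s and 0.0094 against 2.37 CPM in S106>Xbp1U. Elba1 and Elba3, subunits of a boundary complex of the early embryo, had 5.36 and 5.18 CPM in driver-alone gut, 0.396 and 0.373 CPM in driver-alone fat body, and at most 0.0234 CPM in the other guts. bnk and slam act when the blastoderm forms cells. bnk had 5.26 CPM in gut against 0.158 CPM in fat body of S106>Wdah, and slam had 12.2 against 17.2 CPM. Summed over the list, gut held 67.8 CPM against 86.3 CPM in fat body of S106>Wdah, 7.11 against 83.1 CPM in S106>Xbp1s and 8.52 against 91.3 CPM in S106>Xbp1U. The gut value of S106>Wdah is the one that differs. The part of eggs or embryos in other driver-alone gut values was not tested. With the germline, eggshell and oenocyte lists left out, 1304 genes remained on the fat body side. That step takes only the listed genes out of the count, so it does not tell how far such tissue adds to the rest.

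**Figure D5:**
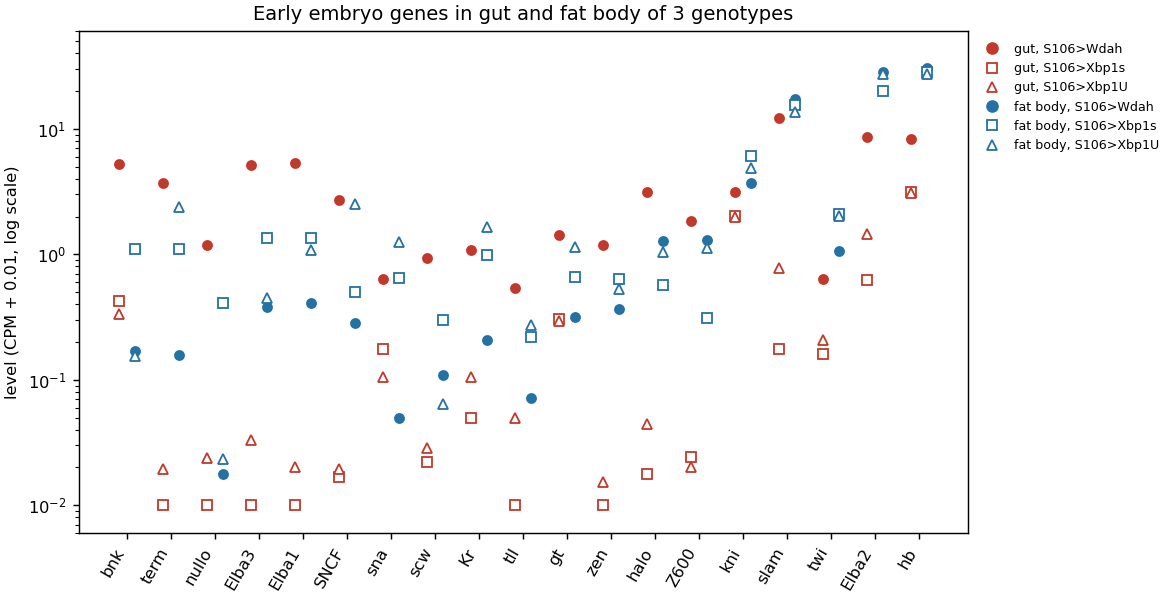
Level of 19 tested genes of the early embryo in gut (red, left of each pair) and fat body (blue, right) of S106>Wdah (filled circles), S106>Xbp1s (squares) and S106>Xbp1U (triangles), in CPM plus 0.01 on a log scale, ordered by the ratio in S106>Wdah. The filled red circles lie above the open red symbols for each gene.

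The genes at the centre of the study were measured in both tissues at moderate levels. Xbp1 had 434 CPM in gut against 290 CPM in fat body of S106>Wdah, 580 against 391 CPM in S106>Xbp1s and 563 against 307 CPM in S106>Xbp1U, with ratios of 0.58, 0.57 and 0.88. Counts over exons do not separate transgene from endogenous transcripts. foxo had 78.4 and 102 CPM (ratio -0.38, but 0.01 in S106>Xbp1U). srl, the fly PGC-1 homologue, had 39.8 CPM in gut and 102 CPM in fat body, grp, which encodes Chk1, 31.9 and 120 CPM, and lok, which encodes Chk2, 21.7 and 118 CPM. lok was past 4-fold in each genotype (-2.44, -3.34 and -3.42). ER chaperones and sensors were on neither side for 12 of 12 genes, and their median of 0.27 in S106>Wdah was 0.51 in S106>Xbp1s and -0.07 in S106>Xbp1U. Hsc70-3, the fly BiP, had 759 CPM in gut against 642 CPM in fat body of S106>Wdah, 1061 against 586 CPM in S106>Xbp1s and 416 against 532 CPM in S106>Xbp1U. Its fat body values were closer together than its gut values, and the order of the tissues was the other way round in S106>Xbp1U.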

How the data were processed

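The labels describe 48 libraries in 12 groups. The authors left 4 libraries out of their analysis, and whether the 48 include these is not given in the sources used here, so the number of libraries behind each mean follows the labels. Reads were checked with FastQC, aligned to dm6 with HISAT2 and counted with featureCounts, per the labels and the study's methods, and DESeq2 and Salmon are also named in the submitters' processing notes. The signal deposited by the authors is the mean of counts divided by size factors, over the RU+ and RU- libraries of a table. The tables also hold log2 fold changes of RU+ over RU-, their standard errors, Wald statistics and p-values, which were not used. Strandedness and the handling of reads shared by copies are not given in the sources used here.

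Each mean was divided by its column sum to give CPM, and log2 ratios of gut over fat body were taken after adding 0.1 CPM, for genes whose mean reached 10 in either tissue. No error or test could be had from pooled means. Genes were called at 4-fold. Length-scaled levels used exonic lengths from a dm6 annotation, with 33 genes lacking one. Named genes were the 10 most abundant per tissue, the 10 largest ratios per direction (mean reaching 100 in the higher tissue, past 4-fold in each genotype), genes at 0 in a tissue, those next to a threshold, genes of the study and, from 44 lists, the most abundant members and those against a list's direction. Other list members in the text, such as AstA, LysP, srp and RpS5b, were chosen after their values were seen. Members and lists were chosen with earlier results of these data known. The list of early embryo genes was added after the data were seen. Some listed genes were not matched and are not analysed here. The calculation was tested on simulated data, with Python 3.11.15, numpy 2.4.6, pandas 2.3.3 and matplotlib 3.10.9. Alternatives were other pseudocounts, minimums, column sums, centring, thresholds, the transgene tables and marker lists left out.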

Additional observations from a re-analysis of the deposited data

Results flagged for a closer look

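A few genes of the early embryo had ratios of opposite sign in the driver-alone flies and in a transgene genotype. The difference was not tested, since each table holds one mean. For term, the log2 ratio of gut over fat body in S106>Wdah was larger by 8.45 than in the genotype of opposite sign (3.95, against -3.58 in S106>Xbp1s and -4.50 in S106>Xbp1U). The same difference was 7.49 for SNCF, 7.32 for Elba3, 7.32 for Elba1 and 7.19 for CG14014. In each, the gut level of S106>Wdah was the high one: SNCF had 2.68 CPM there against 0.272 CPM in fat body, and CG14014 had 2.38 against 0.0854 CPM. In all, 24 genes past 4-fold in S106>Wdah had the opposite sign, at any size, in another genotype, 19 on the gut side and 5 on the fat body side. The 19 also hold ribosomal RNA entries. 28SrRNA-Psi:CR45851 had 2595 CPM in gut against 506 CPM in fat body of S106>Wdah (ratio 2.36, and -0.32 in S106>Xbp1s). 18SrRNA-Psi:CR41602 had 836 against 103 CPM (3.02, and -1.17 in S106>Xbp1s). pre-rRNA:CR45845 and pre-rRNA:CR45847 changed sign in S106>Xbp1s too, and all of these entries stayed toward gut in S106>Xbp1U. The cause was not tested.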

How the results depend on the processing

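The number of genes at least 4-fold higher in gut stayed within 1.5 times of 1068 in 14 of 15 alternatives (724 to 1229) and was 1654 with a threshold of 2-fold. The number at least 4-fold higher in fat body stayed within 1.5 times of 1345 in 11 of 15 (963 to 2012). It was 871 with a pseudocount of 1 CPM, 2042 from the S106>Xbp1U tables, 3004 at 2-fold and 567 at 8-fold. The cause of the change with the tables was not tested. The alternatives within 1.5 times include leaving out marker lists (1024 genes toward gut, 1304 toward fat body). Such a step only takes the listed genes out of the count. Centring on the median gave 1229 genes toward gut and 963 toward fat body, which turns round which side holds more genes. Among the 40 named genes taken through the alternatives, none that was past 4-fold changed sign. The 10 largest ratios per direction were picked as past 4-fold in each genotype, so the transgene tables could not reverse them. The 40 leave out term, SNCF, Elba3, Elba1 and CG14014, which did change sign. Of the 40, foxo (-0.38) was 0.01 from the S106>Xbp1U tables and 0.03 after centring. mt:CoII (-0.04) was 0.17 and 0.36 under the same settings. mt:lrRNA (-0.75) was 0.37 from the S106>Xbp1s tables and 0.16 from the S106>Xbp1U tables. Of 180 list medians 13 changed sign. By centring these were fat body transcription factors, sarcomere, neuron (-0.30, then 0.11), spermatheca (-0.28, then 0.13) and ribosomal protein genes (-0.21, then 0.19). From a transgene table they were flight muscle, tubule, photoreceptor (0.74, and -0.42 in S106>Xbp1s), ER chaperone and early embryo genes (1.96, but -2.61 in S106>Xbp1s and -2.82 in S106>Xbp1U). No paired analysis was possible because the tables hold means over libraries and no value per replicate, and no replicate could be left out for the same reason. Depth per library is not given by these tables, so a gene listed at 0 has no limit from counting.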

Other observations

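Lists not described above mostly lay near equal levels. Proteasome subunits had a median ratio of -0.45 with 34 of 35 genes on neither side. The 13 protein-coding transcripts of the mitochondrial genome were all on neither side. Their median leaned toward fat body in S106>Wdah (-0.95), and less so in S106>Xbp1s (-0.27) and S106>Xbp1U (-0.13). Of the other mitochondrial transcripts mt:tRNA:Ile-GAT was past 4-fold toward fat body in S106>Wdah (-2.04) but at -0.07 in S106>Xbp1s and 0.35 in S106>Xbp1U. The 3 tested heart and pericardial markers and the 4 flight muscle genes were on neither side, and the flight muscle median of 0.22 in S106>Wdah was -1.23 in S106>Xbp1s and -0.99 in S106>Xbp1U. The 4 spermatheca genes, of which 2 were tested, summed to 42.3 CPM in gut and 54.1 CPM in fat body. All 6 enterocyte markers were on the gut side in each genotype, 2 of 4 tested enteroendocrine factors were on the gut side in S106>Wdah, and the 2 tested genes of larval storage proteins and their receptor were on the fat body side.

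Metal-handling genes were among those held by the driver-alone gut table but absent from the transgene gut tables, so their ratios have no check in another genotype. The metallothioneins MtnB, MtnC, MtnD and MtnE had 46.4, 294, 187 and 547 CPM in gut against 0.780, 3.71, 5.42 and 7.26 CPM in fat body. Ctr1B, a copper importer, had 294 CPM in gut and 13.1 CPM in fat body, and LManVI, a lysosomal mannosidase, 1269 and 2.40 CPM. They were picked after their values were seen.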
